A study of Bos taurus with 47 samples.

Results

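The genes described here are the 200 whose RNA level varied least across the 12 groups of a bovine study of fibroblasts, oocytes and early embryos. For each gene the median of a group's libraries was taken in all 12 groups, and a gene had to have a lowest group median of at least 200 normalized read counts and a highest group median at most 2.5 times the lowest. Of the 20526 genes in the table, 2976 met the limit on the lowest group median, 660 of these also met the limit on the ratio, and the 200 with the smallest ratio were kept. The steadiness itself is therefore what chose these genes, and every value that comes from the group medians is a description and not a finding. Of the identifiers in the table, 0 matched the reference gene table used here, so the genes are called by their Ensembl identifiers, no function is given to any of them and no sequence is shown.

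The 47 libraries were made from RNA longer than 200 nt, with 4 libraries in every group except scNT morulae, which had 3, numbered 2, 3 and 4. In somatic cell nuclear transfer (scNT) the nucleus of a body cell replaces the chromosomes of an oocyte; here the donors were fibroblasts starved of serum shortly before transfer. Embryos made by scNT or by in vitro fertilization (IVF, with thawed semen of a Holstein bull) were collected in pools of 20 on day 2 (2-cell), day 3 (8-cell), day 6 (morula) and day 8 (blastocyst). Cells derived from scNT and from IVF blastocysts formed a group each, whose culture the labels do not describe. Fibroblasts were primary cultures from ear biopsies of a Brahma Spanish bull cross, and oocytes were matured in culture to metaphase of the second meiotic division (MII). IVF zygotes were grown on a layer of bovine cumulus cells. Markers of cumulus cells, or of any labelled cell type, could not be looked up without gene names. Whether replicates came from different animals or cultures is not stated, so the spread between libraries may be technical, and the labels' texts name 3 pools in one place and 4 in another.

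An oocyte stores RNA that carries the embryo through its first divisions, and in cattle the embryo's own genome becomes the main source of RNA at about the 8-cell stage. Much of the stored RNA is then lost while new transcripts appear, and cells later diverge into the outer layer and the inner cell mass of the blastocyst. Genes whose measured level stays even across such a change are sought as reference genes, against which other genes are measured. A library gives the RNA that is present and does not separate stored RNA from newly made RNA. Every level is relative to the other RNA of its library and is not an amount per embryo, and fewer cells of a type and less RNA per cell cannot be told apart.

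Libraries held 4608099 to 16642362 recovered reads. Of the 20526 genes, 10828 were above 0 in every library, and all 200 steady genes were among them. The deposited scaling matched median-of-ratios factors over these genes to within 4.66e-07 log2, so the steady genes took part in the scale on which they are read. The 200 genes supplied 1.88% to 2.72% of the summed values of a library while making up 0.974% of the genes. Their fewest recovered reads in any library lay between 79 and 2989, with a median over genes of 343.5. Counting error alone at that lowest library gave a median SD of 0.0778 on the log2 scale. The median over genes of the SD within a group was 0.20 log2, against 0.23 log2 over the 2976 genes, so the spread between replicates was wider than counting error. The steady genes scattered more widely in 4 libraries than in the other 43: fibroblast replicate 3, IVF 8-cell replicate 2, scNT morula replicate 4 and scNT blastocyst-derived replicate 2.

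The ratio of highest to lowest group median ran from 1.30 to 1.91 in the 200 genes, with a median of 1.72. Over the 2976 genes the median ratio was 3.67 and the highest 88.8. Only 23 of the 200 had a ratio of at most 1.5. The limit that took effect was the cap of 200 genes and not the ratio of 2.5. The last gene kept, ENSBTAG00000015857, had a ratio of 1.9109, with a median of 484.7 normalized read counts in fibroblasts and 253.65 in IVF 8-cell embryos. The first gene not kept, ENSBTAG00000018803, had a ratio of 1.91091, with a median of 526.55 in scNT blastocysts and 275.55 in IVF 8-cell embryos. The ratios at this edge thus differed only in the last digits. The 3 genes that were to be left out by identifier would not have met the rule, since their ratios were 9.79, 14.4 and 31.3.

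The mean of the 12 group medians ran from 253 to 6562 normalized read counts among the 200 genes, with a median of 789; 69 genes had a mean under 500 and 74 a mean of at least 1000. These values are not per length, so they order read numbers and not transcript numbers between genes. With the 2976 genes cut into 4 classes of 744 by this mean, 37.5% of the lowest class, 19.2%, 18.5% and 13.4% of the highest class met the ratio limit of 2.5. A gene with a wide ratio above the same lowest median has a higher mean by arithmetic alone, so this order is partly set by the rule.

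ENSBTAG00000003552 had the smallest ratio, 1.30, between a median of 638.1 normalized read counts in oocytes and 489.55 in IVF blastocysts. Its 4 fibroblast libraries held 506.4, 497.9, 950.4 and 511.4, and its 4 oocyte libraries 683.2, 444.3, 708.5 and 593. In 2-cell embryos it had 647.3, 717.7, 611.4 and 606.4 in scNT pools, against 581.7, 583.9, 506.8 and 577 in IVF pools. Fibroblast replicate 3 was far above the other fibroblast libraries, and the scNT and IVF 2-cell pools did not overlap, a difference that limma did not call (adjusted p = 0.833). In 8-cell embryos it had 519, 457.4, 564.5 and 557.7 in scNT pools, against 580.4, 678.7, 535 and 407.4 in IVF pools. In morulae it had 573.8, 482.1 and 1020 in scNT pools, against 458.2, 545.4, 557 and 485.3 in IVF pools. The 1020 of scNT morula replicate 4 was the highest of the 47 values, and the 407.4 of IVF 8-cell replicate 4 the lowest. In blastocysts it had 527, 511, 556.3 and 598.5 in scNT pools, against 489.2, 481.7, 489.9 and 521.7 in IVF pools. In blastocyst-derived cells it had 603.9, 441, 552.1 and 522.6 after scNT, against 557, 528.1, 512.9 and 617.1 after IVF. The gene with the smallest ratio of medians thus held single values 2.5 times apart, since a group median takes little note of the highest and lowest library.

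ENSBTAG00000018548, with the next smallest ratio, 1.350, was even by library as well on the deposited scaling. Its values ran from 595.8 normalized read counts in fibroblast replicate 3 to 1143.5 in IVF 2-cell replicate 4. In 2-cell embryos its mean was 995 ± 23.8 in scNT pools and 1019 ± 93.6 in IVF pools (SD, n = 4 each). In blastocyst-derived cells it was 937 ± 90.2 after scNT and 757 ± 69.2 after IVF (SD, n = 4 each). The derived cells of the 2 origins did not overlap for this gene, with a log2 change of 0.31 ± 0.12 (SE) that limma did not call over all genes tested (adjusted p = 0.289).

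The 2 genes with the highest mean levels and the 1 with the lowest had ratios of 1.77, 1.74 and 1.64. The median over the 200 genes was 1.72. ENSBTAG00000017368, with the highest mean, averaged 9115 ± 1418 normalized read counts (SD, n = 4) in fibroblasts and 5214 ± 253 (SD, n = 4) in oocytes. Its embryo groups had means between 5393 in IVF 2-cell pools and 7124 in scNT morulae, and the derived cells averaged 7293 ± 936 after scNT and 7062 ± 230 after IVF (SD, n = 4 each). The fibroblasts were its highest group, and its ratio of 1.77 comes from them and the oocytes. ENSBTAG00000005316, with the next highest mean, was lowest in morulae, at 3620 ± 401 in scNT pools (SD, n = 3) and 3696 ± 78.3 in IVF pools (SD, n = 4). It was highest in 8-cell embryos made by scNT, at 6392 ± 1122, against 5650 ± 407 in IVF pools of that stage (SD, n = 4 each). ENSBTAG00000000065, with the lowest mean, stood near the lower limit in morulae, at 250.3 ± 17.1 in scNT pools (SD, n = 3) and 204 ± 45.3 in IVF pools (SD, n = 4), where IVF replicate 1 held 151.2 on 98 reads.

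**Figure D1:**
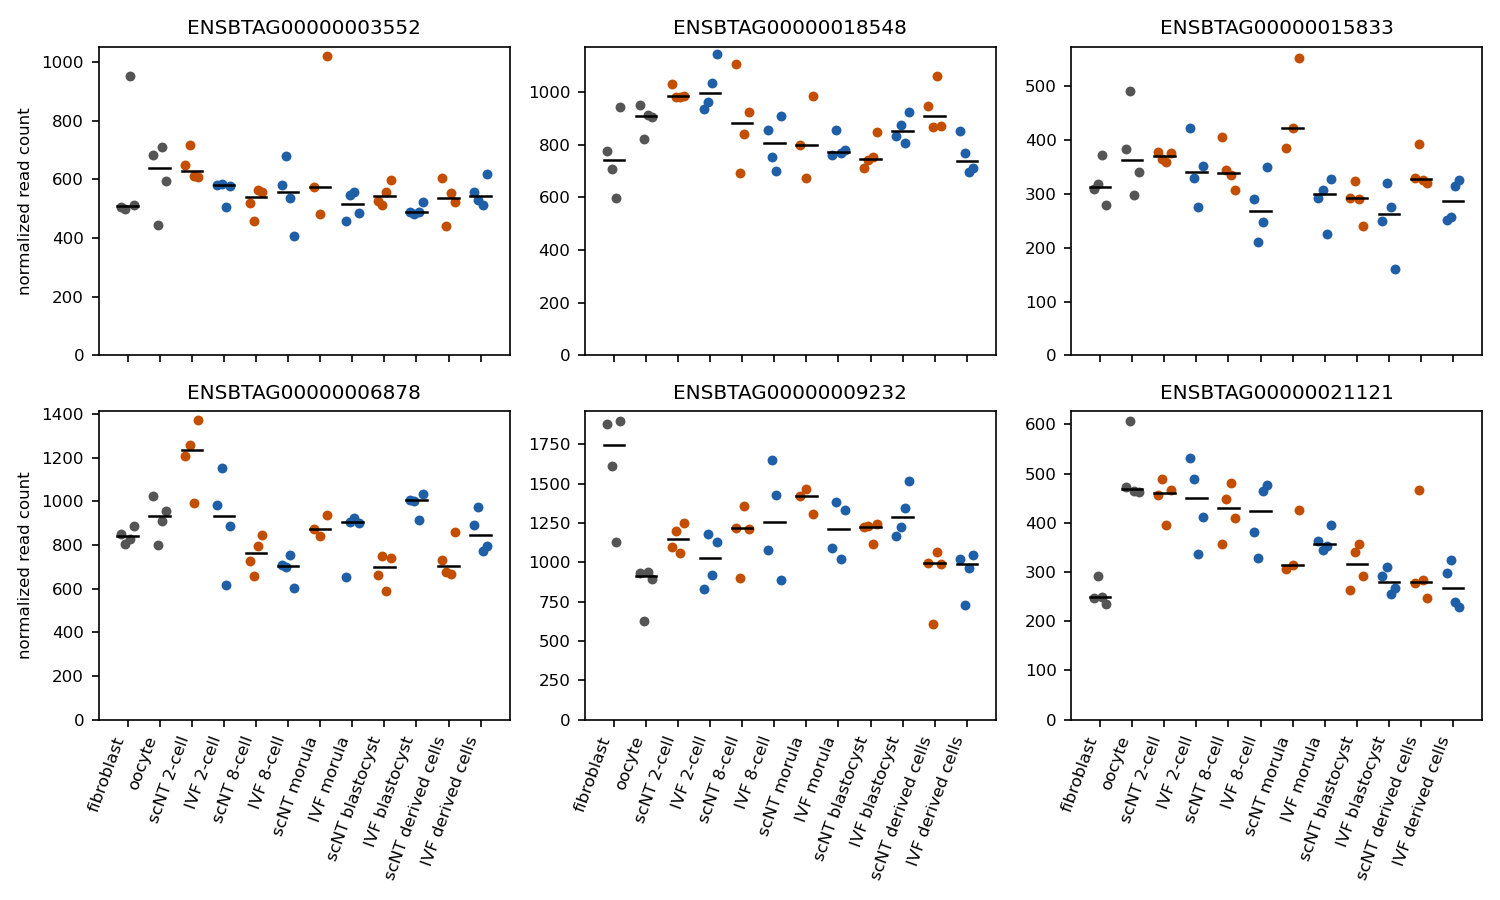
Normalized read counts (y axis, linear from 0) of 6 steady genes in every library, by group (x axis); points are libraries and bars group medians. The 2 genes with the smallest ratios are first, with single values of 950.4 in fibroblasts and 1020 in scNT morulae for ENSBTAG00000003552; the other 4 are the genes with the largest called change in a comparison.

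Each of the 12 groups was the highest for some genes and the lowest for others. Morulae made by scNT held the highest median of 32 genes and 2-cell embryos made by scNT that of 30, followed by fibroblasts with 24. The lowest median fell in oocytes for 35 genes, in fibroblasts for 27, and in IVF 8-cell embryos and IVF blastocyst-derived cells for 23 each. IVF 2-cell embryos were rarely at either end, with 3 genes highest and 1 lowest. IVF morulae were highest for 1 gene and lowest for 20, while scNT morulae were lowest for 17. Of the 200 genes 16% were highest in scNT morulae, 15% in scNT 2-cell embryos and 12% in fibroblasts, against 10.8%, 24.5% and 14.3% of the 2976 genes. Lowest in oocytes were 17.5% and lowest in fibroblasts 13.5%, against 13.8% and 20.4%.

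**Figure D2:**
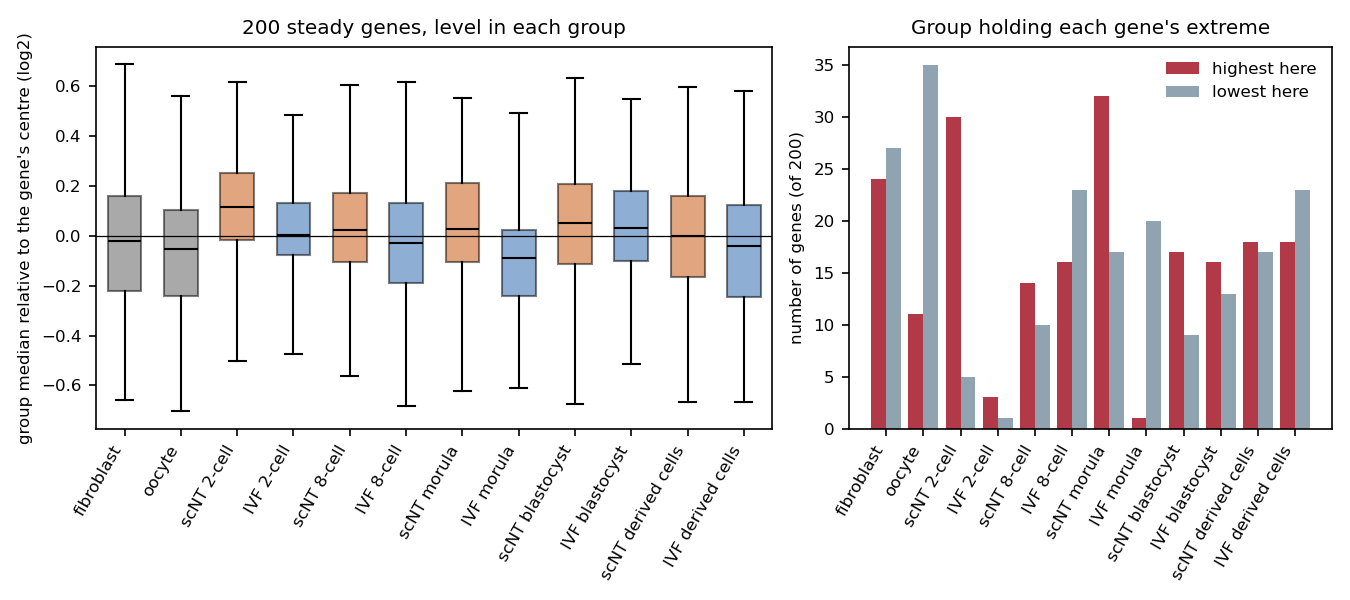
Left, the log2 level of the 200 genes in each group relative to each gene's centre, which is the median of its 12 log2 group medians; boxes span the middle of the genes (quartiles), the line is the median and whiskers reach the extremes. Right, how many of the 200 genes had their highest (red) or lowest (grey) group median in each group: scNT morulae held 32 highest values and oocytes 35 lowest ones.

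The group medians alone do not say how single libraries behaved, and these were not used one by one in the choice. Of the 9400 values of the 200 genes, 48 were under 200, in 21 genes. Also 48 values, or 0.511%, lay more than 2-fold from the gene's centre, 26 above it and 22 below, against 19.8% of the values of the 2976 genes. All 47 libraries were within 2-fold of the centre for 155 of the 200 genes. For 79 of the 200 the highest of the 47 values was at most 2.5 times the lowest. In the whole table, 99 genes met that stricter limit with no library under 200. Small group ratios favour small library ranges, so these counts describe the genes and test nothing.

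Most of the wide values came from 4 libraries. The SD over the 200 genes of a library's log2 distance from the centre was 0.578 in fibroblast replicate 3, 0.555 in IVF 8-cell replicate 2, 0.462 in scNT blastocyst-derived replicate 2 and 0.440 in scNT morula replicate 4. In the other 43 libraries it lay between 0.199 and 0.397. These 4 held 37 of the 48 values beyond 2-fold, in 35 genes, and the other 43 libraries held 11. In the 43 libraries, 189 of the 200 genes stayed within 2-fold of their centre and 140 within a 2.5-fold range, counts that leaving out the widest libraries raises by construction. IVF 8-cell replicate 2 alone held the lowest of the 47 values for 32 genes and the highest for 25, so it lay off in both directions. For these 4 libraries, each gene's log2 difference from the mean of the other libraries of the same group was also taken. Over the 200 genes, these differences correlated in pairs at Pearson's r between -0.156 and 0.346, a description across genes of libraries on one scale. The 4 libraries held 10782057 (fibroblast), 6413054 (IVF 8-cell), 9166113 (scNT blastocyst-derived) and 5663196 (scNT morula) recovered reads, within the range of the others. The IVF 8-cell and scNT morula libraries held the fewest reads of their groups, and the fibroblast and scNT blastocyst-derived ones did not. A link of depth to the scatter was not tested. The 4 libraries were picked out after their values were seen. Without them the rule was met by 696 genes, all 200 among them, and 171 of the 200 were again among the 200 with the smallest ratio. IVF 2-cell replicate 3 stood apart in another way: the median of its 200 distances was -0.23 log2, the lowest of any library, with an ordinary scatter of 0.254.

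**Figure D3:**
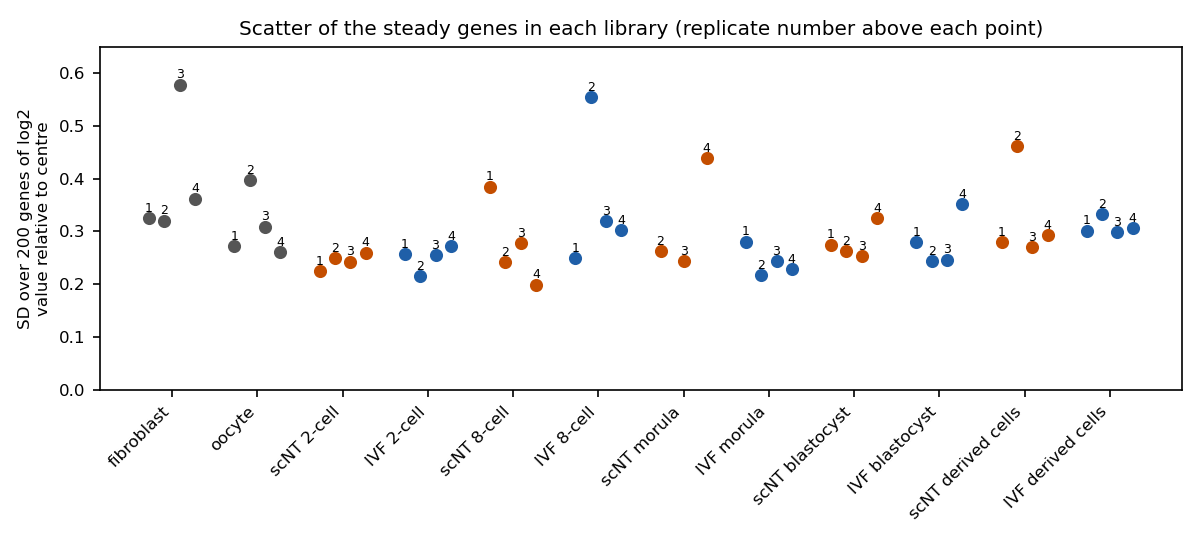
SD over the 200 genes of the log2 distance from each gene's centre (y axis), a point for each of the 47 libraries by group, with its replicate number. Fibroblast replicate 3 (0.578) and IVF 8-cell replicate 2 (0.555) are widest, and 43 libraries lie between 0.199 and 0.397.

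To read the same measure in libraries that took no part in the choice, the rule was applied without 1 replicate number in every group, and the genes so chosen were then read in the single libraries left out. The sets so chosen differed in part from the 200 genes described here. Without replicates 1, 2, 3 and 4 they shared 169, 161, 156 and 155 genes with these. Of 200 genes chosen without replicate 1, 183 stayed within 2.5-fold over the 11 left-out libraries. Without replicates 2, 3 and 4, it was 148, 165 and 158 of 200 over the 12 libraries left out. As shares these were 91.5%, 74%, 82.5% and 79%, against 21.1%, 13.5%, 17.5% and 13.7% of the 2976 genes, which were chosen on all libraries. The median ratio in the left-out libraries was 1.89, 2.21, 2.04 and 2.12, against 3.76, 4.37, 4.03 and 4.41 over those genes. Most genes of these sets thus kept to the limit in single libraries they were not chosen on. Without the 4 wide libraries, the counts were 183, 194, 183 and 179 of 200, against 21.1%, 21.0%, 22.7% and 18.6% of the 2976 genes. Those libraries were picked for the scatter of steady genes and fewer libraries give a smaller range, so these counts are higher by construction. The left-out libraries belong to the same groups and share the deposited scaling with those kept, so they are not a separate study.

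**Figure D4:**
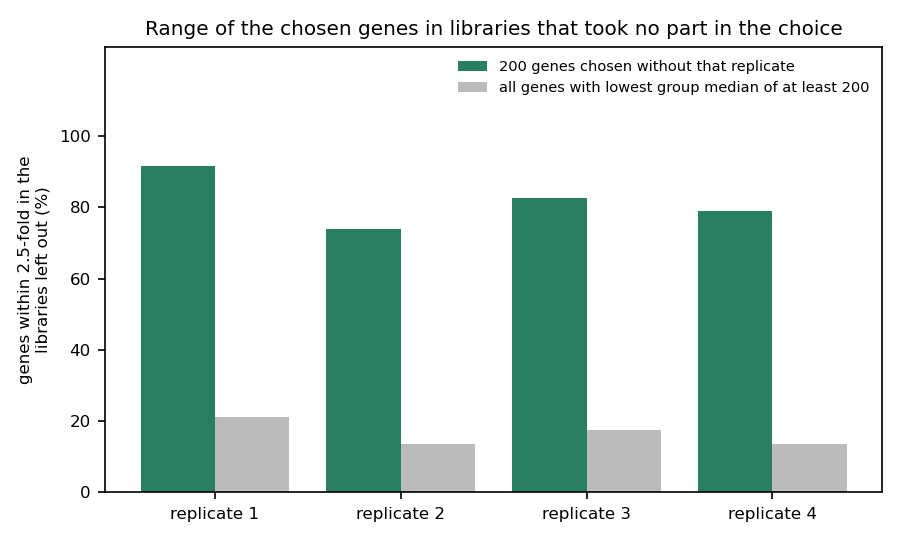
Share of genes (y axis, %) whose highest value was at most 2.5 times the lowest over the libraries of the replicate number left out (x axis), for the 200 genes chosen without that number (green) and for the 2976 genes with a lowest group median of at least 200 over all libraries (grey). The green bars lie between 74% and 91.5%, the grey ones between 13.5% and 21.1%.

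Small differences between stages remained within the limits. The stages were put, after the data had been seen, into early groups (oocytes, 2-cell and 8-cell embryos), late groups (morulae and blastocysts) and cultured groups (fibroblasts and blastocyst-derived cells). In 18 of the 200 genes every late group median was above every early one and in 22 every late one was below, against 698 and 1051 of the 2976 genes. These are 9% and 11% of the steady genes, and 23.5% and 35.3% of the wider set. The late minus early difference ran from -0.72 to 0.60 log2 in the 200 genes. Every cultured group was above every early one in 9.5% of the 200 genes and below in 15.5%, against 25.6% and 38.8% of the 2976 genes. Every cultured group was above every late one in 9% and below in 13.5%, against 16.8% and 26.9%. The rule limits such differences in the 200 genes, so the lower shares follow from the choice.

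The 200 genes' group medians were also reduced to principal components, after each gene's mean over the groups and each group's mean over the genes had been removed. The first component held 31.3% of the variance and the second 19.7%. On the first, the loadings of oocytes and 2-cell and 8-cell embryos were 0.283 to 0.361, and those of morulae were -0.204 (scNT) and -0.081 (IVF), of blastocysts -0.281 (scNT) and -0.271 (IVF), of blastocyst-derived cells -0.352 (scNT) and -0.371 (IVF) and of fibroblasts -0.068. On the second, the loading of fibroblasts was 0.383 and those of the derived cells 0.408 (scNT) and 0.429 (IVF), against morulae at -0.475 (scNT) and -0.321 (IVF) and both blastocyst groups at -0.282. Oocytes and the 2-cell and 8-cell groups lay between -0.040 and 0.094 on it. The first component thus set oocytes and the 2-cell and 8-cell groups apart from the other groups, and the second set the cultured cells apart from morulae and blastocysts.

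Step by step, the median absolute log2 difference between group medians in the 200 genes was smallest between IVF 2-cell embryos and oocytes, at 0.149, against 0.195 over the 2976 genes. It was largest between scNT morulae and scNT 8-cell embryos, at 0.293, against 0.878 over the 2976 genes. Between IVF morulae and IVF 8-cell embryos it was 0.202, against 0.504, and between IVF blastocyst-derived cells and IVF blastocysts 0.250, against 0.488.

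**Figure D5:**
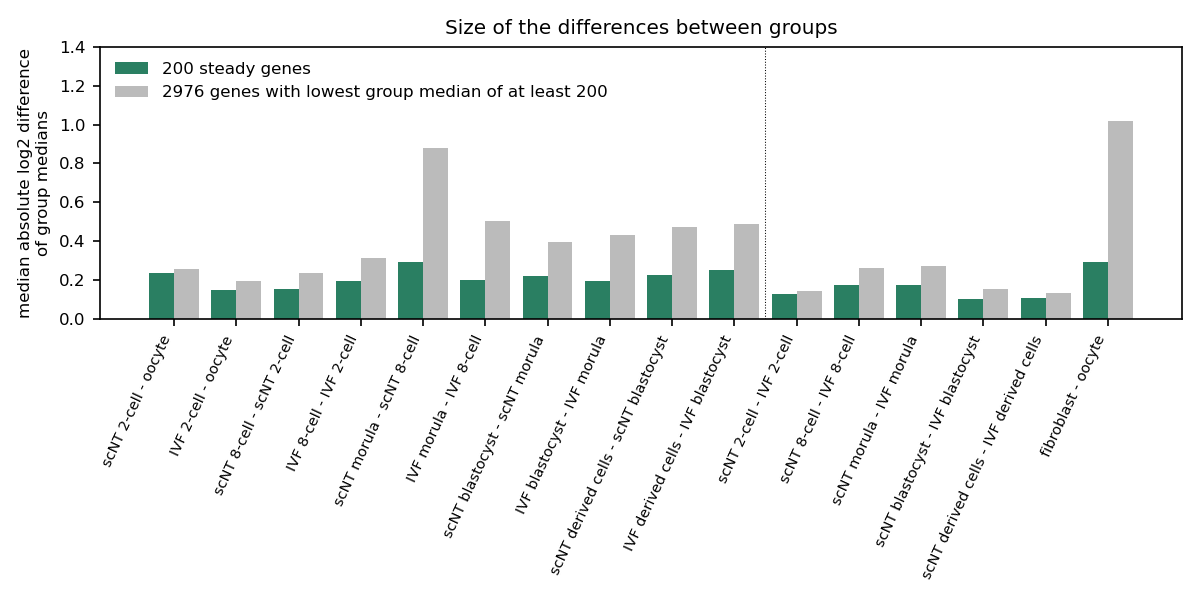
Median absolute log2 difference between group medians (y axis) for the 10 steps along development, left of the dotted line, and for the 6 comparisons of groups, right of it, in the 200 genes (green) and in all 2976 genes with a lowest group median of at least 200 (grey). The step to the scNT morula is 0.293 in the 200 genes and 0.878 in the wider set.

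With libraries scaled to equal totals in place of the deposited scaling, 187 of the 200 still met the rule and 116 were among the 200 with the smallest ratio. The median ratio of the 200 genes was then 1.87 and the highest 2.64. For ENSBTAG00000003552 the ratio rose from 1.30 to 1.67, and for ENSBTAG00000018548 from 1.35 to 1.83. The multipliers between both scalings ran from 0.793 in scNT blastocyst replicate 2 to 1.25 in IVF 2-cell replicate 3. They lay between 0.795 and 0.977 for fibroblast libraries and between 1.07 and 1.17 for oocyte libraries.

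Embryos made by scNT were compared with IVF embryos of the same stage, the comparison the study was made for. The limma test on log2(value + 1) took every gene that reached 10 in no fewer libraries than the smaller of both groups holds. A call means an adjusted p (Benjamini-Hochberg, over every gene tested) under 0.05. The rule used the medians of these same groups, so the counts of called genes are set beside the share called among all genes tested and nothing is read from them. In 2-cell embryos 0 of the 200 genes were called (0.0328% of all genes tested), in 8-cell embryos 0 (0% of all) and in blastocyst-derived cells 0 (1.34% of all, 0.638% higher and 0.702% lower). At an unadjusted limma p under 0.05 there were 3, 5 and 11 of the 200 in these stages. The share of all genes at that limit was not counted, so nothing is read from these counts. On the recovered reads, edgeR and DESeq2 also called 0 of the 200 in each. Over all genes they called 2 and 9 of 12195 in 2-cell embryos, 0 and 378 of 13000 in 8-cell embryos. In derived cells it was 156 and 455 of 12390. Without IVF 8-cell replicate 2 or scNT blastocyst-derived replicate 2, limma again called 0 of the 200, with 0 and 134 of all genes called. The share of all genes called in 8-cell embryos depended on the fit: with the replicate numbers as pairs limma called 168 of 13000 genes and DESeq2 without pairs 378, none of them among the 200. With pairs, an unadjusted limma p under 0.05 was reached by 13 of the 200 in 2-cell and 17 in 8-cell embryos. For these counts, too, the share of all genes at that limit was not counted, and no effect of the pairs is read from them.

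In 2-cell embryos the 200 genes lay slightly higher after scNT than after IVF as a body. The group median was higher in scNT pools for 148 genes and lower for 52, with a median difference of 0.10 log2. Among the 2976 genes it was higher for 2086 and lower for 887, with a median difference of 0.09. The shift changed with the scaling and with 1 library. The median limma change of the 200 genes was 0.11 log2 on the deposited values and -0.03 with equal library totals, and edgeR with its own scaling gave 0.00. Without IVF 2-cell replicate 3, whose median distance from the centres was -0.23 log2, the median change of the 200 genes was 0.04 on the deposited values, and the median of all genes tested was 0.01. The median over all genes tested moved from 0.07 to -0.07 between the deposited scaling and equal totals.

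In morulae 8 of the 200 genes were called, all higher after scNT, where 18.7% of all genes tested were called, 7.37% higher and 11.3% lower. Their log2 changes lay between 0.51 and 0.65. An unadjusted limma p under 0.05 was reached by 33 of the 200. The share of all genes at that limit was not counted, so nothing is read from the 33. ENSBTAG00000015833 had the largest change, with 385.7, 422.3 and 553 normalized read counts in scNT morulae, against 291.6, 306.2, 225.6 and 327.5 in IVF morulae. Every scNT pool was above every IVF pool. Its mean was 454 ± 88.0 in scNT morulae (SD, n = 3) and 288 ± 43.96 in IVF morulae (SD, n = 4), a log2 change of 0.65 ± 0.19 (SE, limma adjusted p = 0.0418). At the other stages its scNT and IVF pools overlapped. The count of 8 was 3, 5 and 5 without scNT replicate 2, 3 or 4, where 1873, 2027 and 2666 of all genes were called, against 2542 with every library. It was 5, 0, 1 and 0 without IVF replicate 1, 2, 3 or 4, where 1461, 114, 776 and 713 of all genes were called, so the calls over all genes were fewer as well. The morula group median was higher after scNT for 148 of the 200 genes and lower for 52, against 1695 and 1281 of the 2976 genes. With equal library totals 4 were called, 2 higher and 2 lower, and 2318 of all genes. The median change of all genes tested then moved from 0.05 to -0.11 log2, and that of the 200 genes from 0.16 to 0.005. ENSBTAG00000015833 lost its call with equal totals and when any of these 7 libraries other than scNT replicate 2 was left out.

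In blastocysts 2 of the 200 genes were called, both lower after scNT, where 5.95% of all genes tested were called, 2.53% higher and 3.42% lower. ENSBTAG00000006878 had 661.2, 751.1, 588.5 and 742.1 normalized read counts in scNT blastocysts, against 1008.2, 1000.1, 915.1 and 1036 in IVF blastocysts. The highest scNT pool was below the lowest IVF pool. Its mean was 686 ± 76.4 in scNT and 989.9 ± 52.2 in IVF blastocysts (SD, n = 4 each), a log2 change of -0.53 ± 0.11 (SE, limma adjusted p = 0.0175). ENSBTAG00000002890, which was named after its values were seen because only 2 genes were called, had 768.9, 650.4, 724.9 and 669.6 in scNT blastocysts, against 1132.8, 1014.4, 816.1 and 987.2 in IVF blastocysts. It did not overlap either, with a log2 change of -0.48 ± 0.12 (SE, limma adjusted p = 0.0378). At an unadjusted limma p under 0.05 there were 21 of the 200. The share of all genes at that limit was not counted, so nothing is read from the 21. Without scNT replicate 1, 2, 3 or 4 the count of called genes of the 200 was 0, 1, 0 and 1. Of all genes 396, 860, 451 and 378 were then called, against 750 with every library. Only the counts of called genes follow. Without IVF replicate 2, 0 of the 200 were called (316 of all genes), and without IVF replicate 4, 5 were (857 of all genes). ENSBTAG00000006878 lost its call without scNT replicate 1 or 3 or IVF replicate 2, and ENSBTAG00000002890 without any of the scNT replicates or IVF replicate 1 or 2. With equal library totals 9 were called, all lower, and 1103 of all genes, while the median change of all genes tested moved from -0.01 to -0.15 log2.

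Fibroblasts and oocytes, the starting cells of scNT, differed most. Of the 200 genes 52 were called, 31 higher and 21 lower in fibroblasts, where 78.3% of all genes tested were called, 37.2% higher and 41.2% lower. The called changes lay between 0.29 and 0.96 in absolute log2, as the ratio limit allows. ENSBTAG00000009232 had 1881.5, 1615.4, 1128.1 and 1895.1 normalized read counts in fibroblasts, against 935.1, 626.8, 938.1 and 896.2 in oocytes. The groups did not overlap, and fibroblast replicate 3 and oocyte replicate 2 were each the lowest of their group. The log2 change was 0.93 ± 0.21 (SE, limma adjusted p = 0.00326), and it was 1.096 without fibroblast replicate 3. ENSBTAG00000021121 had 247.7, 292.1, 250.2 and 234.6 in fibroblasts, against 473.1, 607.2, 464.7 and 463.1 in oocytes. The groups were far apart beside their spread, with a log2 change of -0.96 ± 0.15 (SE, limma adjusted p = 3.07e-04).

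Across the embryo stages ENSBTAG00000021121 lay between these ends. Its means were 452 ± 39.8 in scNT pools and 442 ± 86.6 in IVF pools at the 2-cell stage, and 424 ± 53.8 in scNT pools and 413 ± 69.7 in IVF pools at the 8-cell stage (SD, n = 4 each). In morulae it averaged 349 ± 67.0 after scNT (SD, n = 3) and 364 ± 22.6 after IVF (SD, n = 4), and in blastocysts 313 ± 43.4 after scNT and 281 ± 24.9 after IVF (SD, n = 4 each). The oocyte level was thus nearest in the earliest embryos and the fibroblast level nearest in blastocysts and derived cells, at 319 ± 99.7 after scNT and 272 ± 46.3 after IVF (SD, n = 4 each). At each stage the scNT and IVF pools overlapped.

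The split of the fibroblast and oocyte calls into higher and lower changed with the fit and with the scaling, which shifts all genes of a library alike. It was 25 higher and 24 lower with edgeR and 29 higher and 32 lower with DESeq2. These fits called 10147 and 10331 of 13191 genes in all. Both took recovered reads in place of log2 values, so more than the scaling differed from limma. With equal library totals 84 of the 200 genes were called, 7 higher and 77 lower in fibroblasts, and 28 of the 52 were among them, with 10415 of 13216 genes called in all. The median change of all genes tested moved from -0.13 to -0.53 log2 between these scalings, and that of the 200 genes from 0.05 to -0.32. Without fibroblast replicate 3, the library with the widest scatter, 87 were called, 50 of the 52 among them, and 11699 of the 13602 genes tested were called, against 10335 of 13191 with every library.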

How the data were processed

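Values were 1 normalized count per gene and library for 20526 genes and 47 libraries. This deposited signal was made by the authors with FastQC, MultiQC, STAR, DESeq2 and genome build UMD3.1, per the submitters' processing notes; which tool did what, in which version, and how reads were counted is not stated there. Library making used several rounds of PCR, per the labels' protocols, so several reads may stem from 1 molecule and what is said on depth covers counting error only. The signal was whole multiples of a step (0.477 to 2.04) in each library, from which reads were recovered: 99.9% to 100% of values above 0 were whole within 0.05, against at most 21.0% by chance. Levels are not per length.

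Group medians and the rule were computed with Python 3.11.15 and pandas 2.3.3. Comparisons used limma 3.58.1 (R 4.3.3; trend and robust; only the 2 groups compared; no block; two-sided; Benjamini-Hochberg over all genes tested). Fold changes on log2(value + 1) understate those of low genes. edgeR 4.0.16 (quasi-likelihood) and DESeq2 1.42.0 on recovered reads, equal library totals, a pseudocount of 10, no filter, a replicate block, other limits and each library left out were alternatives. The limma fit alone was also run on simulated counts. These had the same setting of spread for every gene and no wide or paired libraries. That run therefore does not cover such libraries. Same-numbered libraries deviated together, with every correlation over 0.1, between scNT and IVF 2-cell (0.118 to 0.683) and 8-cell embryos (0.231 to 0.563). In 8-cell embryos each scNT library correlated best with the IVF library of its own number, so the numbers pair these samples by the data. In 2-cell embryos scNT replicates 2 and 4 correlated best with IVF replicates 1 and 2, so pairing by number is not settled there. The labels do not name pairs.

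The genes, the 13 lists of gene names and the tests were chosen with earlier results of these data known. As 0 identifiers matched the reference table (assembly ARS-UCD2.0), 0 lists could be used, and cell type markers were not analysed here. Genes were named by identifier: the 2 with the smallest ratio, the 2 highest and the 1 lowest in level, the 1 on either side of the limit, and the called gene with the largest change in each direction of each comparison. Left out were 3 identifiers that the rule sets aside.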

Additional observations from a re-analysis of the deposited data

Results flagged for a closer look

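In 18 of 165 groups of 4 libraries, the highest or lowest value stood off from the others by more than Dixon's limit allows; chance flags about 1 in 20 groups. The groups tested were those of the named genes, of the median distance of the 200 genes from their centres, of their scatter and of their share of a library, and scNT morulae with 3 libraries were not tested. None of these values was given an explanation.

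Fibroblast replicate 3 stood off 4 times. The scatter of the 200 genes was 0.578 there, against 0.362 in the nearest library. ENSBTAG00000003552 held 950.4 normalized read counts (nearest 511.4), ENSBTAG00000000065 held 313.8 (nearest 234.6) and ENSBTAG00000018803, the first gene not kept, held 429.6 (nearest 379.5). All of these were the highest of their group.

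Replicate 2 of the scNT blastocyst-derived cells also stood off 4 times. The scatter of the 200 genes was 0.462 there, against 0.293. ENSBTAG00000015833 held 392.3 normalized read counts (nearest 329.9) and ENSBTAG00000021121 held 466.7 (nearest 283.1), both high, while ENSBTAG00000009232 held 608.2 (nearest 990.9). In replicate 4 of these cells the 200 genes made up 2.35% of the library, against 2.31% in the nearest.

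Oocyte replicate 2 held 626.8 for ENSBTAG00000009232 (nearest 896.2) and 607.2 for ENSBTAG00000021121 (nearest 473.1), the 2 genes with the largest called changes between fibroblasts and oocytes. In 2-cell embryos, ENSBTAG00000018548 had 1030.2 in scNT replicate 1 (nearest 984.2), ENSBTAG00000003552 had 506.8 in IVF replicate 3 (nearest 577), and ENSBTAG00000018803 had 262 in IVF replicate 1 (nearest 325.5). In 8-cell embryos the 200 genes made up 2.503% of scNT replicate 2 (nearest 2.599%), and ENSBTAG00000000065 had 385.9 in IVF replicate 1 (nearest 232.8). ENSBTAG00000006878 had 654.1 in IVF morula replicate 1 (nearest 900.2), and ENSBTAG00000015857 had 311.3 in scNT blastocyst replicate 2 (nearest 400).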

How the results depend on the processing

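The 660 genes that met the rule became 265 at a ratio limit of 2, 1059 at a limit of 3 and 335 at a lower limit of 500; they were 597 with equal library totals, 678 with group means, 862 at a lower limit of 100 and 581 to 637 without 1 replicate number. Values beyond 2-fold were 48, but 74 with equal totals and 9 without the 4 widest libraries with centres recomputed, both chosen after seeing the data. Called genes of the 200 in morulae were 8, but 4 with equal totals, 3 with no filter and 0 to 5 without a library. In blastocysts they were 2, but 9 with equal totals and 0 to 5 without a library. Between fibroblasts and oocytes they were 52, but 84 with equal totals and 37 to 87 without a library. With the replicate number as a block, 0 genes were called in morulae and 1 in blastocyst-derived cells, where the samples share only a number, and the block changed the count of called genes of the 200 in no other comparison by over 1.5 times; over all genes it called 168 in 8-cell embryos (0 without it), 2 in morulae (2542) and 302 in derived cells (166). Read on the 200 genes alone, added after seeing the data, 0 comparisons had every same-numbered correlation over 0.1, against 2 over all genes. Where a cause is not plain from the setting, the cause was not tested. Of the settings tried for the called changes of the named genes, 51 kept the call, 18 lost it and 0 turned the direction. Counting error at the lowest library, a median of 0.0778 log2, limits the smallest differences.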
